A study of Arabidopsis thaliana with 25 samples.

Results

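The roots of Arabidopsis thaliana seedlings that lack a working MPK6 gene were compared with wild-type roots. The comparison held 8 of the 25 arrays of the series, chosen by genotype and organ from the sample labels: 4 of mpk6 roots and 4 of WT roots. In each genotype 2 arrays came from normoxic and 2 from hypoxic seedlings, and the difference was taken as the mean over both treatments. All lines were in the Col-0 background, and mpk6 is a knockout by T-DNA insertion. Seedlings were 10 days old, had grown upright on plates with sucrose under long days, and were cut into root and shoot after treatment. Hypoxia was an airtight chamber filled with argon (99.998%) and normoxia an open box as a mock. The treatment protocol gives 2 h, but the source names of the hypoxic samples give 9 h, so the length of hypoxia is uncertain. The other arrays used below were 8 of WT and mpk6 shoots under the same treatments and those of MPK6ox, in which a viral 35S promoter drives MPK6. The sample titles call the arrays biological replicates without saying whether plates or growth batches differed, so the p-values measure only the spread between samples. Unless stated otherwise, that spread was pooled over all 25 arrays, shoots and MPK6ox included, and not taken from the 8 root arrays alone. Only 1 insertion line was used. No value for the MPK6 transcript is used here, and the knockout label therefore stands unchecked.

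MPK6 is a mitogen-activated protein kinase, the last kinase of a phosphorylation cascade that passes signals from receptors at the cell surface to transcription factors and enzymes. In Arabidopsis it acts with the related MPK3 in immune signalling, ethylene production, stomatal patterning and root development. Loss of MPK6 is also known to alter embryo and seed coat development in part of the seeds and the growth of lateral roots and root hairs.

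RNA was read on the Affymetrix ATH1 array, on which several short probes form a probe set for a transcript, and the values are log2 expression values, so a difference of 1 is a doubling. Array medians lay between 6.88 and 7.08. The array of mpk6 root hypoxia replicate 1 stood apart from the rest. Its interquartile range was 3.29, against 3.51 to 3.70 on all others. The GAPDH control transcript gave a signal 3.41 log2 units stronger at its 3' than at its 5' end on that array, against 1.92 to 2.80 on the other root arrays, a measure that rises with RNA degradation or short labelled products. Photosynthesis genes, markers of shoot tissue (6 measured), averaged 13.48 to 13.69 in shoots, 7.86 to 10.21 in WT roots and 7.95 to 9.71 in mpk6 roots. The root hair expansins EXPA7 and EXPA18 averaged 7.18 to 9.89 in WT roots, 7.23 to 10.27 in mpk6 roots and 5.46 to 5.89 in shoots. The labelled organs therefore matched their markers, and with both treatments pooled the ranges of the genotypes overlapped for both lists. Within normoxia the photosynthesis means did not overlap, at 7.86 and 7.94 in WT and 8.94 and 7.95 in mpk6 roots. They overlapped within hypoxia, and the root hair means overlapped within each treatment.

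Of 22746 probe sets tested, 133 differed between mpk6 and WT roots at an adjusted p under 0.05, 63 higher and 70 lower in mpk6 (limma, Benjamini-Hochberg), which is 0.585% of those tested (0.277% higher and 0.308% lower). The falls were the larger changes: 45 lower and 19 higher probe sets passed a 2-fold difference. The median difference of all probe sets was 0.02, and 2223 (9.77%) had an unadjusted p under 0.05. Within both treatments the arrays of the genotypes did not overlap for 59 of the 63 (4.99% of all probe sets) and 68 of the 70 (3.68%), and all 4 mpk6 arrays lay above all 4 WT arrays for 34 (1.65%) and below them for 45 (1.38%), separations that follow in part from the call itself. Exactly 1 gene was assigned to 72 of the 133, of which 36 were higher and 36 lower. The largest named rises were in AT3G29410, of the terpene synthase family, and AT5G04120, of the phosphoglycerate mutase family, and the largest named falls in M17, a late embryogenesis abundant protein, the beta-glucosidase BGLU19 and the defensin PDF2.1.

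The number of calls rested on single arrays. Without mpk6 root hypoxia replicate 1, the array that stood apart, 21 calls were made, and without its partner, mpk6 root hypoxia replicate 2, 485. Leaving out WT root normoxia replicate 2 gave 20 calls and leaving out its partner gave 202. The same for WT root hypoxia replicate 1 gave 65 calls, WT root hypoxia replicate 2 gave 88, mpk6 root normoxia replicate 2 gave 47 and mpk6 root normoxia replicate 1 gave 147. With the 8 root arrays fitted alone, so that no other array informed the estimate of the spread, 20 probe sets were called. Among the 15 largest rises and 15 largest falls named below, AT3G29410, AT5G04120 and AT2G28780 were called in every one of these 9 fits.

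**Figure D1:**
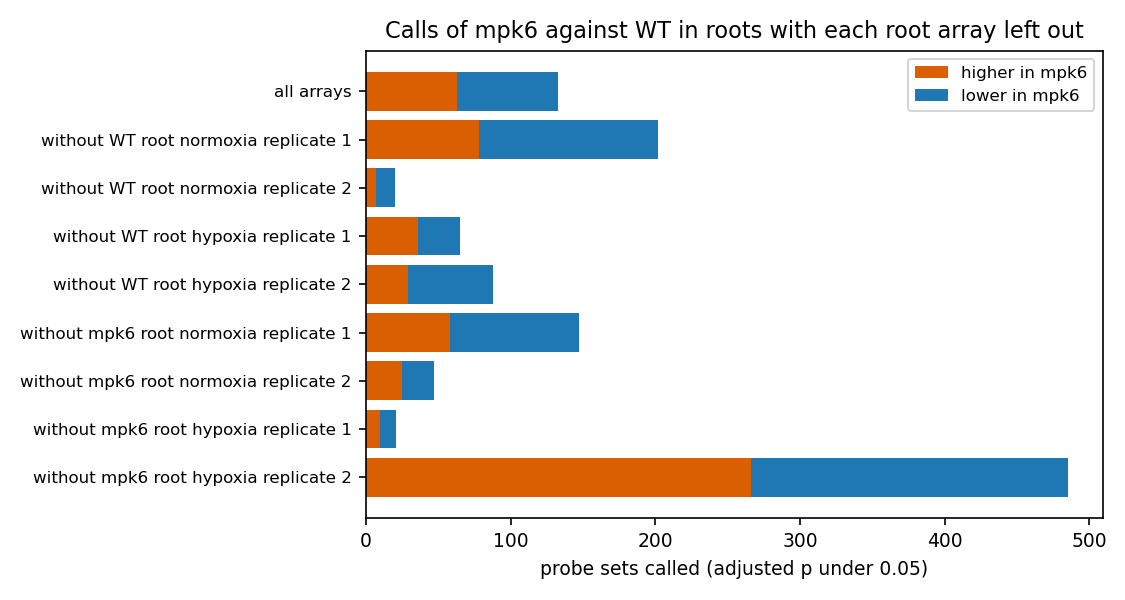
Number of probe sets called different between mpk6 and WT roots (horizontal axis), with all arrays and with each root array left out in turn (rows). Orange parts are probe sets higher in mpk6 and blue parts are lower. The total is 133 with all arrays and runs from 20 to 485 with 1 array left out.

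The largest rise was in AT3G29410, a member of the terpene synthase family, whose enzymes make terpenoids from prenyl diphosphates. Its log2 level was 7.62 and 6.78 in normoxic WT roots and 6.27 and 7.03 in hypoxic WT roots. In mpk6 roots it was 9.32 and 9.25 in normoxia and 9.21 and 8.76 in hypoxia. All 4 mpk6 arrays lay above all 4 WT arrays, with more than 1 log2 unit between the closest. The difference was 2.21 ± 0.18 (SE), 4.62-fold, with an adjusted p of 2.71e-05 (limma), and no left-out array took the adjusted p above 0.000464.

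AT5G04120, a member of the phosphoglycerate mutase family, rose nearly as much. WT roots gave 8.84 and 8.20 in normoxia and 8.58 and 8.38 in hypoxia, and mpk6 roots 11.14 and 10.63 in normoxia and 10.27 and 10.26 in hypoxia. Again no WT array reached an mpk6 array. The difference was 2.07 ± 0.21 (SE), 4.21-fold (limma adjusted p = 0.000179, at most 0.00212 with an array left out). TBL41 belongs to the TRICHOME BIREFRINGENCE-LIKE family, whose characterised members acetylate cell wall polysaccharides. Its level was 9.02 and 8.35 in normoxic WT, 7.76 and 7.78 in hypoxic WT, 10.02 and 9.74 in normoxic mpk6 and 9.29 and 8.84 in hypoxic mpk6 roots. The genotypes separated within each treatment but overlapped across treatments, because normoxic WT replicate 1 exceeded hypoxic mpk6 replicate 2. The difference was 1.24 ± 0.18 (SE), 2.37-fold (limma adjusted p = 0.00506, at most 0.0463 with an array left out, and 0.0534 in the fit of the 8 root arrays alone).

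**Figure D2:**
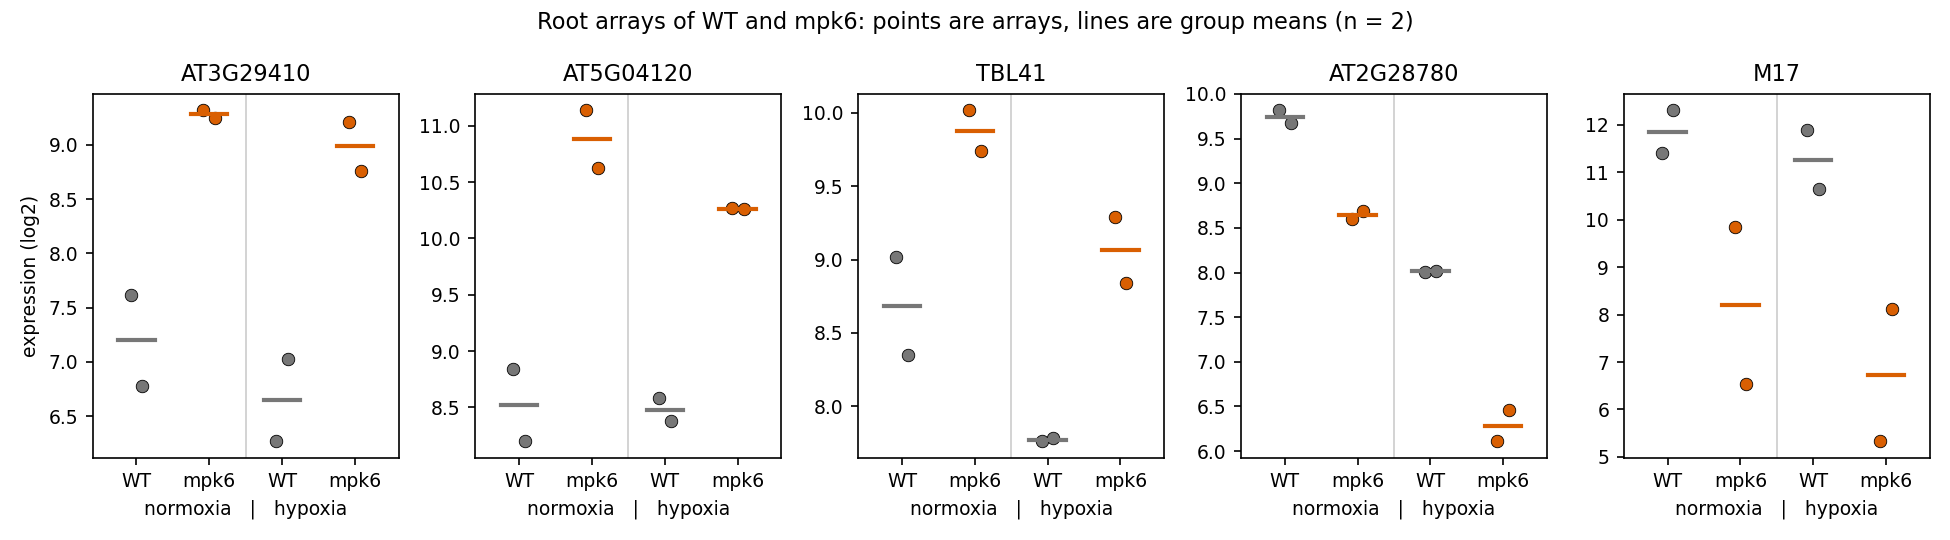
Log2 expression (vertical axes, which differ in range and do not start at 0) of 5 genes in the root arrays of WT (grey) and mpk6 (orange), with normoxia at the left and hypoxia at the right of each panel. Points are arrays and lines are means of 2 arrays. AT3G29410, AT5G04120 and TBL41 are higher and AT2G28780 and M17 lower in mpk6 under both treatments, and the M17 arrays of mpk6 spread from 5.33 to 9.85.

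The other named rises included genes of several enzyme families. AT2G25150 and AT5G47980, both of the BAHD acyltransferase family that transfers acyl groups from coenzyme A, were higher by 1.54 ± 0.30 and 1.29 ± 0.24 (SE; limma adjusted p = 0.0279 and 0.0225). AT5G47980 went from 8.68 and 8.11 in normoxic and 7.98 and 7.53 in hypoxic WT roots to 10.18 and 9.35 in normoxic and 9.01 and 8.95 in hypoxic mpk6 roots. Its WT and mpk6 arrays did not overlap within a treatment. A further terpene synthase family gene, AT3G32030, was higher by 1.43 ± 0.26 (SE; limma adjusted p = 0.0184), read from a probe set type that can also bind related transcripts. AT5G61290, of the flavin monooxygenase family, was higher by 1.31, the glutathione transferase GSTU26 by 1.05 and 2A6, of the 2-oxoglutarate-dependent dioxygenase family, by 0.92 (limma adjusted p between 0.0118 and 0.0293). A further probe set of 2A6 differed by 0.18 and was not called.

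SWEET11, a sucrose exporter known for its role in phloem loading, was also higher in mpk6 roots. It gave 10.31 and 9.36 in normoxic WT, 9.82 and 9.07 in hypoxic WT, 11.08 and 10.73 in normoxic mpk6 and 11.25 and 10.43 in hypoxic mpk6 roots. Each mpk6 array exceeded all WT arrays. The difference was 1.23 ± 0.24 (SE; limma adjusted p = 0.0259). Among genes of the cell wall, AT1G65570 of the polygalacturonase family, which cuts pectin, rose by 0.99 and XTH33, an enzyme that cuts and rejoins xyloglucan, by 0.73 (limma adjusted p = 0.0191 and 0.0103). AT1G23160 and AT5G51470, of the GH3 family that includes enzymes joining hormones to amino acids, rose by 1.00 and 0.66 (limma adjusted p = 0.0314 and 0.0259). AT1G14960, of the major latex protein-like family, rose by 1.13, AT3G59710 by 1.14 and AT3G61930 by 0.90 (limma adjusted p between 0.015 and 0.0259).

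The calls of most of these rises rested on single arrays. Of the 15 largest, which were chosen for separation of the genotypes within each treatment, 12 lost the call without WT root normoxia replicate 2 (adjusted p from 0.0834 to 0.188) and 12 without mpk6 root hypoxia replicate 1 (0.0509 to 0.153). The call was lost for 10 without WT root hypoxia replicate 2 (0.0544 to 0.114) and for 9 without mpk6 root normoxia replicate 2 (0.0563 to 0.152). It was lost for 6 without mpk6 root normoxia replicate 1 (0.0521 to 0.0975), for 5 without WT root hypoxia replicate 1 (0.0531 to 0.118) and for AT1G23160 without mpk6 root hypoxia replicate 2 (0.0546). With the 8 root arrays alone 10 of the 15 lost it (0.0534 to 0.304), as did XTH33 (0.23) and AT5G51470 (0.314). XTH33 lost the call without WT root normoxia replicate 2 (0.0777) or mpk6 root hypoxia replicate 1 (0.0594), and AT5G51470 without these or WT root hypoxia replicate 1 or mpk6 root normoxia replicate 2 (0.0699 to 0.174).

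The largest fall was in M17, a late embryogenesis abundant protein, one of the proteins that build up in seeds before they dry. M17 stood at 11.40 and 12.31 in normoxic WT, 11.89 and 10.64 in hypoxic WT, 9.85 and 6.54 in normoxic mpk6 and 5.33 and 8.11 in hypoxic mpk6 roots. All mpk6 arrays lay below all WT arrays, but they also differed among themselves by over 4 log2 units. The SD within a group was 2.34 and 1.97 in normoxic and hypoxic mpk6 roots and 0.64 and 0.88 in WT roots. It was 0.04 to 0.45 in the other groups. The SE pools all 12 groups, so it rests in part on arrays that varied less than those of mpk6 roots. The difference was -4.10 ± 0.58 (SE), 17.2-fold lower (limma adjusted p = 0.00367, at most 0.0321 with an array left out), and the call was lost in the fit of the 8 root arrays alone (0.173).

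Other seed genes were lower with it. Of the list of seed storage and late embryogenesis genes, 6 of 22 were measured, all 6 were lower in mpk6 roots, and 4 were called lower (M17, DELTA-VPE, PAP85 and AT3G01570), against 0.308% of all probe sets. The list was chosen with earlier results of these data known, so this share is a description and not an independent test. The median difference of the 6 was -1.51, against 0.02 over all probe sets. DELTA-VPE, a vacuolar processing enzyme of the seed coat, went from 8.27 and 8.75 in normoxic and 8.91 and 7.42 in hypoxic WT roots to 7.08 and 5.88 in normoxic and 5.91 and 7.04 in hypoxic mpk6 roots. All 4 mpk6 arrays were below all 4 WT arrays. Its difference was -1.86 ± 0.33 (SE; limma adjusted p = 0.0156), that of PAP85, a vicilin-like storage protein, -1.82 ± 0.32 (0.0156) and that of the oleosin AT3G01570 -1.20 ± 0.24 (0.0268). The late embryogenesis genes AT3G15670 and LEA4-5 differed by -1.11 and -0.79 and were not called (0.167 and 0.164).

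The mean of the 6 seed genes was 7.40 to 8.69 on WT root arrays and 5.64 to 7.00 on mpk6 root arrays, with no overlap. It was 5.04 to 5.24 in MPK6ox roots, 8.52 to 9.14 in WT shoots and 7.64 to 8.37 in mpk6 shoots. Whether this reflects fewer cells or seed remnants that hold these transcripts, or less RNA in each, cannot be told apart in whole roots. With the 8 root arrays alone none of the 6 was called. A single one was called when WT root normoxia replicate 2, WT root hypoxia replicate 1, mpk6 root normoxia replicate 2 or mpk6 root hypoxia replicate 1 was left out, and 6 were called without WT root normoxia replicate 1.

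**Figure D3:**
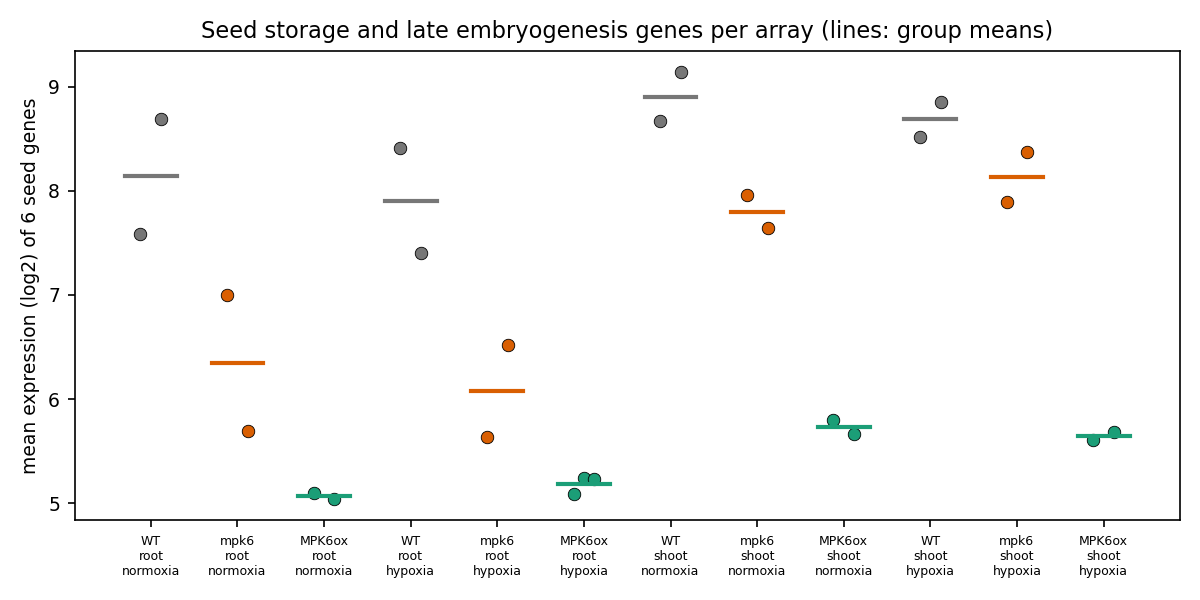
Mean log2 expression of the 6 measured seed storage and late embryogenesis genes on each of the 25 arrays (points), by genotype, organ and treatment, with group means as lines. WT root arrays lie at 7.40 to 8.69, mpk6 root arrays at 5.64 to 7.00 and MPK6ox root arrays at 5.04 to 5.24.

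The other large falls were in genes outside that list, which no list or test groups. BGLU19, a beta-glucosidase, was lower by -2.36 ± 0.48 (SE), the cupin AT2G28490 by -2.18 ± 0.45 and the late embryogenesis abundant proteins AT3G02480 and AtLEA4-1 by -1.99 ± 0.37 and -1.72 ± 0.31 (limma adjusted p between 0.0158 and 0.0349). BGLU19 gave 10.06 and 11.25 in normoxic WT, 10.86 and 9.92 in hypoxic WT, 9.73 and 6.99 in normoxic mpk6 and 7.08 and 8.84 in hypoxic mpk6 roots. As for M17, normoxic mpk6 replicate 2 and hypoxic mpk6 replicate 1 were the lowest arrays. The desiccation-related AT1G47980, AT5G01300 of the phosphatidylethanolamine-binding family and the jacalin-type lectin AT3G21380 fell by 1.49, 1.72 and 1.42 on the log2 scale (limma adjusted p between 0.0232 and 0.0367). PDF2.1, a plant defensin, and AT2G15010, a thionin, both small cysteine-rich proteins of defence-type families, differed by -2.22 ± 0.46 and -2.20 ± 0.36 (0.0348 and 0.0103).

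AT2G28780 had the smallest standard error of the 15 largest falls. It gave 9.82 and 9.67 in normoxic WT, 8.01 and 8.02 in hypoxic WT, 8.60 and 8.69 in normoxic mpk6 and 6.11 and 6.46 in hypoxic mpk6 roots. It was lower in mpk6 within each treatment and lower in hypoxia within each genotype, and replicates lay within 0.35 of each other. The genotype difference was -1.42 ± 0.14 (SE; limma adjusted p = 0.000179, at most 0.00212 with an array left out). ChiC, a class V chitinase, fell by 1.75 on the log2 scale, and the lipid transfer protein family genes AT2G18370 and AT3G58550, whose products bind lipids in the cell wall, by 1.47 and 1.40 (limma adjusted p = 0.00967, 0.0103 and 0.00359). AT2G18370 stood at 10.23 and 11.18 in normoxic WT, 9.73 and 10.29 in hypoxic WT, 9.52 and 9.47 in normoxic mpk6 and 7.93 and 8.63 in hypoxic mpk6 roots, so that all mpk6 arrays lay below all WT arrays.

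Of the 15 largest falls, M17 and AT2G28780 kept the call with every root array left out, as did AT3G58550. With the 8 root arrays alone 14 of the 15 lost it, all but AT2G28780 (0.128 to 0.293), and so did AT3G58550 (0.121). Without WT root normoxia replicate 2, 13 lost it (adjusted p from 0.056 to 0.229), and without mpk6 root hypoxia replicate 1, 13 (0.0509 to 0.199). The call was lost for 11 without mpk6 root normoxia replicate 2 (0.0536 to 0.178) and for 10 without WT root hypoxia replicate 1 (0.0597 to 0.149). BGLU19 and AT1G47980 lost it without WT root hypoxia replicate 2 (0.0545 and 0.0828), and PDF2.1 without mpk6 root normoxia replicate 1 (0.0566).

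Adjacent genes of the same family were read beside the named genes. GSTU25, directly beside GSTU26, differed by 0.19 ± 0.41 (SE), AT1G03400 beside 2A6 by -0.09 ± 0.12, M10 beside M17 by -0.21 ± 0.10, AT1G14950 beside AT1G14960 by -0.16 ± 0.16 and the chitinase family gene AT4G19820 beside ChiC by -0.16 ± 0.14, and none was called. LCR68 beside PDF2.1 differed by 0.44 ± 0.18 and was not called. Of genes 2 places from PDF2.1, LCR69 differed by -0.56 ± 0.21 and LCR72 by 0.03 ± 0.10, neither called. Called genes lay within 10 genes of each other in 3 pairs, all lower in mpk6: AT2G18360 and AT2G18370, directly adjacent, AT3G21380 and BGLU19, 2 genes apart, and AT3G58450 and AT3G58550, 10 apart. The calls of AT2G18360 and AT3G58450 were lost without WT root normoxia replicate 2, mpk6 root normoxia replicate 2 or mpk6 root hypoxia replicate 1 (0.0729 to 0.142), that of AT2G18360 also without WT root hypoxia replicate 2 (0.0897) and that of AT3G58450 without WT root hypoxia replicate 1 (0.0683). Both were lost with the 8 root arrays alone (0.129 and 0.135). MPK6 lies on chromosome 2, which held 14 of the 72 called genes (19.4%) and 16.5% of the measured genes.

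The genotype difference was then taken within each treatment. In normoxic roots 16 probe sets were called, 12 higher (0.0528%) and 4 lower (0.0176%), or 0.0703% in all, with 1111 at an unadjusted p under 0.05. In hypoxic roots 11 were called, 4 higher (0.0176%) and 7 lower (0.0308%), or 0.0484% in all, with 2336 at an unadjusted p under 0.05. AT5G04120 differed by 2.36 in normoxia and 1.79 in hypoxia, and AT3G29410 by 2.08 and 2.33 (limma adjusted p between 0.0018 and 0.0375). Also called in normoxia were AT1G65570 (1.52), XTH33 (1.06) and AT5G51470 (1.03), and in hypoxia the class III peroxidase AT2G39040 (0.85), AT2G28780 (-1.73), AT1G21010 (-1.35) and the fructokinase-type AT3G59480 (-1.04), with limma adjusted p between 0.00204 and 0.0477. In hypoxia AT1G65570, XTH33 and AT5G51470 differed by only 0.47, 0.39 and 0.28 and were not called. In normoxia AT2G39040, AT2G28780, AT1G21010 and AT3G59480 differed by 0.65, -1.10, -0.28 and -0.64 and were not called.

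These within-treatment counts also rested on single arrays. In normoxia, 0 calls were left without WT root normoxia replicate 2, 4 without mpk6 root normoxia replicate 2, 9 without either hypoxic WT array, 28 without WT root normoxia replicate 1 and 36 without mpk6 root normoxia replicate 1. The hypoxic count was 0 without mpk6 root hypoxia replicate 1, 944 without mpk6 root hypoxia replicate 2, 1 and 4 without WT root hypoxia replicate 2 and 1, and 22 without either normoxic WT array. Both counts were 0 with the 8 root arrays alone, and with the photosynthesis mean of the root arrays as a covariate they were 30 in normoxia and 3 in hypoxia. These shoot markers moved with the genotype in opposite directions: all 6 were higher in normoxic mpk6 than WT roots (median 0.63) and all 6 lower in hypoxic mpk6 roots (median -0.53), none called. Their means were 7.86 and 7.94 in normoxic WT, 8.94 and 7.95 in normoxic mpk6, 9.39 and 10.21 in hypoxic WT and 8.86 and 9.71 in hypoxic mpk6 roots, and their part in the within-treatment results was not tested beyond that covariate. All 5 genes named for normoxia lost the call without WT root normoxia replicate 2 (adjusted p from 0.07 to 0.522), and AT1G65570, XTH33 and AT5G51470 without mpk6 root normoxia replicate 2 (0.469, 0.0588 and 0.512). XTH33 lost it without mpk6 root normoxia replicate 1 (0.102), AT1G65570 and AT5G51470 without either hypoxic WT array (0.0534) and AT5G51470 without either hypoxic mpk6 array (0.0536). All 6 genes named for hypoxia lost the call without mpk6 root hypoxia replicate 1 (0.0564 to 0.648). Of these, AT3G29410 alone kept it without WT root hypoxia replicate 2 (0.0637 to 0.202 for the others), and AT5G04120, AT2G39040 and AT1G21010 lost it without WT root hypoxia replicate 1 (0.18 to 0.251).

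No probe set was called for a genotype effect that differed between hypoxia and normoxia (0%, limma). The smallest adjusted p was 0.997, and 853 probe sets (3.75%) had an unadjusted p under 0.05. Without mpk6 root hypoxia replicate 2, which leaves the array that stood apart alone in its group, 47 were called. Among the 133 probe sets, chosen by the mean, the median difference of the 63 higher ones was 0.89 in normoxia and 0.78 in hypoxia, and that of the 70 lower ones -1.12 and -1.33. Among probe sets with exactly 1 gene, the 3 smallest unadjusted p-values in each direction belonged to AT5G17730, AT1G74350 and AT5G60080 (higher) and AT4G01140, AT5G19290 and UGT72E3 (lower). The 3 higher ones were dim, at 4.25 to 5.02, 5.04 to 5.79 and 5.23 to 5.98 on the WT and mpk6 root arrays. Of these root arrays, mpk6 root hypoxia replicate 1, which stood apart, gave the highest value of AT5G17730 and AT5G60080. It also gave the lowest value of each of the 3 lower genes. UGT72E3, a glucosyltransferase of monolignols, was 0.98 higher in normoxic mpk6 roots, which was called (limma adjusted p = 0.0261), and 0.11 higher in hypoxic mpk6 roots, which was not, and the difference between the treatments was not called.

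**Figure D4:**
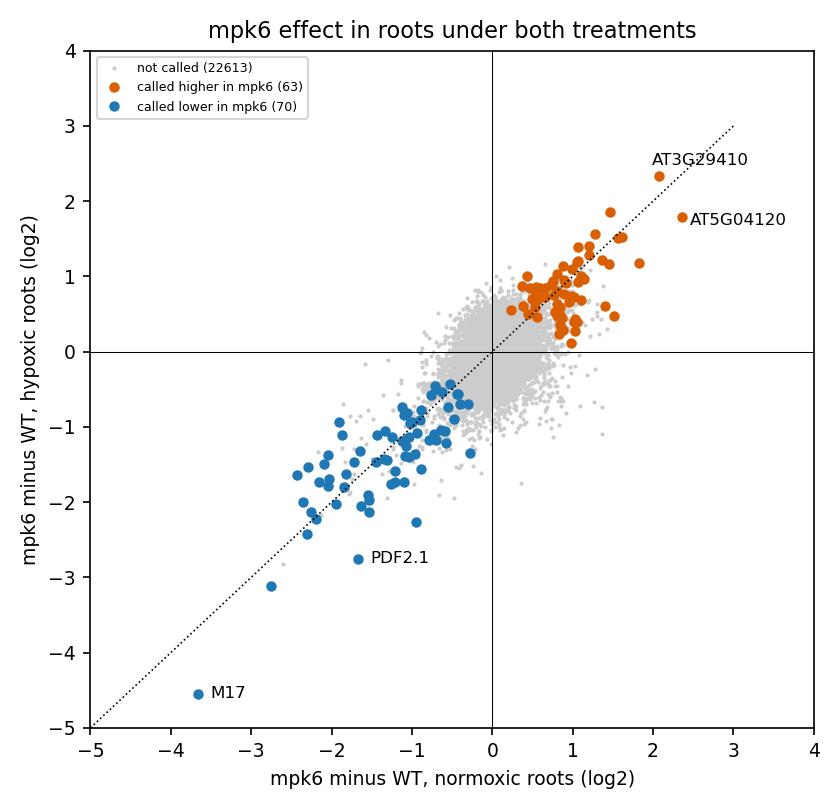
Difference between mpk6 and WT (log2) in normoxic roots (horizontal axis) and hypoxic roots (vertical axis) for all 22746 probe sets. Orange points are the 63 called higher and blue points the 70 called lower in the mean of both treatments, which the axes share, and the dotted line marks equal differences. The orange points lie above 0 and the blue points below 0 on both axes.

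No gene of the low-oxygen response passed the test. Of that list 21 of 42 were measured, and none was called (limma; none had an unadjusted p under 0.05), with differences from -0.32 to 0.27 and a median of -0.14. Within treatments none was called either, and 3 had an unadjusted p under 0.05 in normoxia (median of the 21 -0.18) and 1 in hypoxia (median 0.07). AT3G10040, a transcription regulator of this response, differed by -0.30 ± 0.18 (SE) in the mean, by -0.67 ± 0.26 in normoxia and by 0.07 ± 0.26 in hypoxia. In the mean PDC2, a pyruvate decarboxylase of ethanol fermentation, differed by 0.14 ± 0.46 and the calmodulin-like CML38 by -0.09 ± 0.11.

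Lists tied to MPK6 signalling gave no call. Of 25 genes for MPK6 substrates 5 were measured (median -0.07), among them the ethylene transcription factor EIN3 (-0.07 ± 0.13, SE) and the zinc finger repressor STZ (-0.48 ± 0.37). Of 23 immune response genes 4 were measured, all lower and none called: GRX480 (-0.51), WRKY22 (-0.39), WRKY53 (-0.29) and PDF1.2 (-0.20). One of the 22 MAP kinase cascade genes was measured, the kinase ATMPK13 (0.04). No gene was called either in the ethylene (2 measured), abscisic acid (3), iron (3), heat shock (4), mitochondrial dysfunction (4), touch and wounding (4) or cell division (2) list, and the jasmonate and the nitrate, phosphate and sulfate lists had no measured member.

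Lists of root growth and the cell wall gave a single call. LBD29, an auxin-induced transcription factor of lateral root initiation, was 5.78 and 5.42 in normoxic WT, 5.84 and 5.89 in hypoxic WT, 6.13 and 6.85 in normoxic mpk6 and 6.29 and 6.99 in hypoxic mpk6 roots, with all mpk6 arrays above all WT arrays (0.83 ± 0.17, SE; limma adjusted p = 0.034). Its call was lost without either hypoxic WT array (0.108 and 0.0907), WT root normoxia replicate 2 (0.212), mpk6 root normoxia replicate 2 (0.16) or mpk6 root hypoxia replicate 2 (0.057), and with the 8 root arrays alone (0.245). The other 3 measured of the 25 auxin genes differed by -0.30 (GH3.3), -0.36 (LBD16) and 0.42 (WES1) and were not called. None of 17 listed class III peroxidases was called (median 0.14), nor any of 9 cell wall loosening genes, 7 genes of ER bodies, the defence organelles of Brassicaceae (median 0.01), 2 root hair genes (median 0.25), 1 root cell type gene or 6 photosynthesis genes (median 0.05, from -0.21 to 0.29 with an array left out). The peroxidase AT2G39040, which is not on the list, was 0.75 ± 0.10 (SE) higher in mpk6 roots and was called with any root array left out (limma adjusted p = 0.00164), but not with the 8 root arrays alone (0.12). In the MD-2-related lipid recognition family, 5 of 6 were measured with a median of 0.36, and AT5G23840 was 1.11 ± 0.25 (SE) higher without being called (limma adjusted p = 0.0608).

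The arrays of MPK6ox, which enter the genotype difference only through the shared estimate of the spread, gave further readouts of the called probe sets. A probe set with a small spread is called more readily in each comparison. The sets were also chosen by a difference in roots, which a transcript absent from roots could hardly show, whereas all probe sets include such transcripts. The shares below are therefore not independent of the selection. How much of them follows from it was not tested. In normoxic MPK6ox seedlings, 50 of the 63 probe sets higher in mpk6 roots were higher in roots than in shoots (79.4%, against 21.4% of all probe sets), with a median difference of 1.52. Of the 70 lower ones 28 were (40%), with a median of 0.05. Hypoxia lowered 26 of the 63 in MPK6ox roots (41.3%, against 5.49% of all) and raised 2. Of the 70 it lowered 7 (10%) and raised 5 (7.14%, against 4.28%). The median hypoxia response of the 63 was -0.56. Of the 63, 7 were lower in roots than in shoots (11.1%), as were 8 of the 70 (11.4%), against 18.3% of all probe sets. AT2G39040 lay beyond both medians of the 63, with a root-shoot difference of 3.65 and a hypoxia response of -1.88 in MPK6ox. Other rises went the other way: SWEET11 had a root-shoot difference of -1.31 and AT3G59710 a hypoxia response of 1.01.

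MPK6ox roots were also compared with the same WT root arrays, so the values below share their controls with the mpk6 difference and are given side by side. Against WT, 215 probe sets were called in MPK6ox roots (0.945%). Some falls were larger there: M17 differed by -7.47 in MPK6ox and -4.10 in mpk6, BGLU19 by -5.27 and -2.36, AT2G28490 by -4.70 and -2.18, AT3G02480 by -4.00 and -1.99, and AT2G15010 by -2.70 and -2.20. Others were smaller or went the other way in MPK6ox and were not called there: PDF2.1 differed by -1.82 in MPK6ox and -2.22 in mpk6, and AT2G28780 by -0.58 and -1.42. ChiC differed by 0.39 in MPK6ox and -1.75 in mpk6, AT2G18370 by 0.37 and -1.47, and AT3G58550 by 0.63 and -1.40. Of the 36 lower genes, 19 were also called lower in MPK6ox roots (0.479% of all probe sets were) and 17 were not. Of the 70 lower probe sets, 51 were also lower in MPK6ox roots, 34 were called lower and 1 was called higher. Of the 63 higher ones, 56 were also higher and 6 were called higher, against 106 of all 22746. Among the rises, AT3G29410 differed by 0.66 in MPK6ox (not called) and AT5G04120 by 1.06 (limma adjusted p = 0.0114). AT1G14960 differed by 1.27 in MPK6ox (limma adjusted p = 0.0011) and 1.13 in mpk6.

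**Figure D5:**
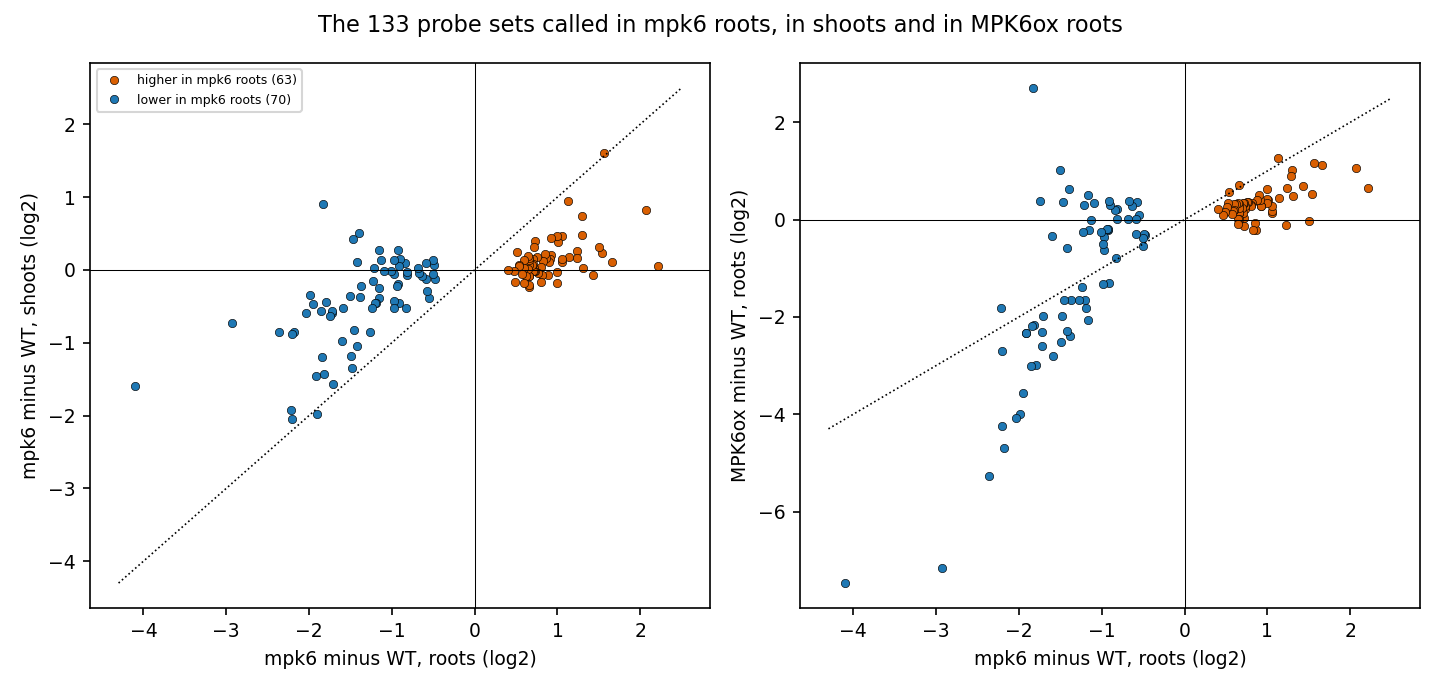
The 133 probe sets called in mpk6 roots. The horizontal axes give mpk6 minus WT in roots (log2) and the vertical axes mpk6 minus WT in shoots (left) and MPK6ox minus WT in roots (right, which shares its WT arrays with the horizontal axis). Orange points are higher and blue points lower in mpk6 roots, and the dotted lines mark equal differences. The lower set reaches -7.47 in MPK6ox roots, while other members of it lie above 0.

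The shoot values of the 133 probe sets, which were chosen for their root difference, follow. Of the 63 probe sets higher in mpk6 roots, 44 were also higher in mpk6 shoots, with a median of 0.11, and of the 70 lower ones 54 were also lower, with a median of -0.38. None of the 133 was called in shoots, where 6 probe sets were called in all (0.0264%). Some members differed about as much in shoots as in roots without passing the test, such as AT2G15010 (-2.05 in shoots and -2.20 in roots) and PDF2.1 (-1.92 and -2.22). A direct test of the root minus the shoot effect called 8 probe sets (0.0352%), 1 with a positive (0.0044%) and 7 with a negative difference (0.0308%), 4 of the 8 with exactly 1 gene. The count was 4 without WT root hypoxia replicate 2, WT shoot hypoxia replicate 1 or mpk6 shoot normoxia replicate 2, and 5 without mpk6 root normoxia replicate 2.

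AT3G29410 differed by 2.21 in roots and 0.05 in shoots, a difference of 2.15 ± 0.26 (SE; limma adjusted p = 0.00267). AT2G28780 differed by -1.42 in roots and 0.11 in shoots (-1.53 ± 0.20, adjusted p = 0.00747), and AT3G58550 by -1.40 and 0.50 (-1.90 ± 0.28, adjusted p = 0.0108). AT2G16005, of the MD-2-related lipid recognition family, went the other way: it was 2.32 higher in mpk6 shoots and 0.58 higher, not called, in mpk6 roots (-1.74 ± 0.25, adjusted p = 0.0108). With the 16 WT and mpk6 arrays alone AT2G28780 kept the call (0.0149) and the other 3 lost it: AT3G29410 (0.0583), AT2G16005 (0.0624) and AT3G58550 (0.199). The calls of AT3G29410 and AT2G28780 held with any array left out. That of AT3G58550 was lost without WT root hypoxia replicate 2 (0.0513), and those of AT3G58550 and AT2G16005 without WT shoot hypoxia replicate 1 (both 0.0555), mpk6 root normoxia replicate 2 (0.0539) or mpk6 shoot normoxia replicate 2 (0.052).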

How the data were processed

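The deposited values are on a log2 scale and came from RMA (version not given in the sources used here), according to the submitters' processing notes. The labels' protocols describe biotin labelling in 2 amplification cycles. Values were used as deposited. Of 22810 probe sets, 64 controls were left out. Genes came from the array's probe table: 13513 probe sets carried 1 gene, 503 several and 8730 were unnamed here, and TAIR10.1 supplied symbols and neighbours. limma 3.58.1 in R 4.3.3 fitted 12 group means over all 25 arrays (13 residual and 3.41 prior degrees of freedom), and p-values were adjusted by Benjamini-Hochberg over 22746 probe sets. On simulated data, 93 of 100 changes of 1 log2 unit and 100 of 100 of 2 units were recovered, with 11 false calls. Each simulated probe set had independent normal noise of equal spread on all arrays, and 200 were changed. No simulated array stood apart, so these figures do not give the power or error rate of the real comparison.

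Named genes were the 15 largest called rises and falls with 1 gene and no overlap of genotypes within a treatment, up to 5 each way in the other comparisons (3 where nothing was called), list members and adjacent genes of the same family. AT2G18360 and AT3G58450 were named after their values were seen, because they lie near another called gene. LCR69 and LCR72 were also named after their values were seen, because they lie 2 genes from PDF2.1. The groups compared, the 22 lists and the rules were chosen with earlier results of these data known. Arrays have no depth, and their number limits the precision. Figures were drawn in Python 3.11.15 with matplotlib 3.10.9.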

Additional observations from a re-analysis of the deposited data

Results flagged for a closer look

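A test of the difference between organs picked out 8 probe sets whose mpk6 effect differed between roots and shoots (limma, adjusted over all probe sets). Those with exactly 1 gene were AT3G29410 (2.15, the effect being larger in roots), AT3G58550 (-1.90), AT2G28780 (-1.53), and AT2G16005 (-1.74, the effect being larger in shoots). Root and shoot came from seedlings of the same treatment, and no explanation was tested.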

How the results depend on the processing

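None of the 45 differences of genes named for their size in a comparison changed direction under the alternatives run; list members and adjacent genes were not traced singly. With the replicate number as a block, calls rose from 133 to 341 for the mean of both treatments, from 16 to 43 in normoxia, from 11 to 72 in hypoxia and from 8 to 26 for the organ difference, with 0 for the treatment difference. The numbers were not taken to pair the samples, because the labels do not say what a number shares. Deviations of same-numbered arrays correlated between root groups at 0.02 to 0.56. The 2 of the 6 correlations near 0 were those of WT root hypoxia with the normoxic WT and mpk6 groups, and the others were 0.25 to 0.56. Variation shared by number among part of the arrays therefore remains possible. With the 8 root arrays alone the counts were 20, 0 and 0, and with the 16 WT and mpk6 arrays alone 3 for the organ difference. These fits estimate the spread from fewer arrays. They also leave out groups that varied less for some genes, such as M17. The mean of photosynthesis genes as a covariate gave 30 calls in normoxia and 3 in hypoxia, leaving out the dimmest 5687 probe sets 17 in hypoxia and an intensity trend 19 in hypoxia; the cause was not tested. Centring each array on its median gave 8 calls in hypoxia, 50% of them higher, against 36.4%. With 1 array left out, counts ran from 20 to 485 for the mean, 0 to 36 in normoxia, 0 to 944 in hypoxia, 0 to 47 for the treatment difference and 4 to 12 for the organ difference. A group left with 1 array was assumed to vary like the others.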
